A study of Solanum lycopersicum with 24 samples.

Results

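The tomato mutant *res* (restored cell structure by salinity) was compared with its wild type (WT), cv. Moneymaker, under salt stress, and the difference between the genotypes in leaves was set against that in roots. All plants were grown in hydroponics and were 6 weeks old when salt was applied (200 mM NaCl, with a lower dose on the first day), and roots and leaflets of the first fully expanded leaf were taken after 5 days of it. The comparison rests on the 12 salt arrays of the 24 in the series, with 3 arrays for each of the 4 groups (*res* leaves, WT leaves, *res* roots and WT roots). An array holds the pooled RNA of 3 plants, so that the spread within a group is one between pools, and 3 pools per group limit the precision. The control arrays are of the same genotypes and tissues, without NaCl, but their tissue was harvested ahead of the treatment, and salt and 5 days of growth cannot be told apart. *res* is described in the labels only as a mutant in the Moneymaker background, and no other allele is stated.

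For each of 67795 probe sets the quantity given below is the tissue difference, that is, *res* minus WT in leaves minus *res* minus WT in roots, on the log2 scale ± SE. A positive value means that the mutation shifted the transcript higher in leaves than in roots, and a negative value the reverse. Intensities are log2 values after robust multi-array average (RMA), and the median of a salt array lay between 1.84 and 2.0. Probe sets were called as differentially expressed genes (DEGs) where the limma p, adjusted across the whole array, was under 0.05 and the genotypes or tissues were at least 2-fold apart. The 8 nuclear photosynthesis genes used as leaf markers were higher in every leaf array than in every root array. These 8 remained of 11 after symbols were taken out with values seen, so the check is not independent of the values. *ftsH6*, first listed with them, read 6.02 and 6.42 in replicates 1 and 2 of WT roots and 2.36 to 2.76 in WT leaves. Of 17 genes of mineral uptake used for roots, 7 were higher in every root array, 6 overlapped and 4 were higher in every leaf array. Whole tissue was measured, in which fewer cells of a type and less RNA per cell cannot be told apart. A single array stood apart from its group. Replicate 3 of WT roots in salt lay more than 2-fold away from the average of its 2 fellow arrays at 1399 probe sets, a number that was 518 for replicate 1, 368 for replicate 2 and 58 to 239 for the arrays of the other 3 salt groups. Among the 2054 root DEGs found without it, its value was nearer to the *res* mean than to the other WT arrays in 41.5%, against 1.9% and 2.1% for replicates 1 and 2, which had served to call them. Values without this array are given for the 3 named genes whose tissue difference it moves by over 1.5 times (*ADH2*, *ftsH6* and *TPS31*) and for some others.

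As background, salt reaches the root first, and leaves meet it as sodium and chloride carried up by transpiration together with a shortage of water. Roots adjust ion uptake, barriers and growth, while leaves protect the plastids from excess light and reactive oxygen and slow cell division and expansion. Jasmonate, a hormone made from plastid lipids that induces defence proteins and restrains growth, acts in both organs.

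The effect of the mutation in salt differed between the tissues at 4825 probe sets (7.12%), of which 1113 were higher in leaves than in roots (1.64%) and 3712 were lower (5.48%). This balance depended on the scaling, because the median tissue difference of all probe sets was -0.1, with -0.11 in leaves and -0.01 in roots. With the quantile normalization repeated within each tissue there were 1711 higher and 2175 lower, and with each array centred on its median 1357 and 3022. Against WT, *res* leaves had 827 higher and 2223 lower DEGs (4.5%) and *res* roots 806 higher and 671 lower (2.18%). The number in roots rose to 2054 without replicate 3 of WT roots. Of the 3712 lower tissue differences, 1640 (44.2%) came with a fall in *res* leaves only, 520 with a rise in *res* roots only and 1451 (39.1%) with a DEG in neither tissue by itself. Of the 1113 higher ones, 510 (45.8%) came with a rise in *res* leaves only and 355 (31.9%) with a fall in *res* roots only. Effects called in opposite directions in both tissues were found at 80 lower and 24 higher probe sets.

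**Figure D1:**
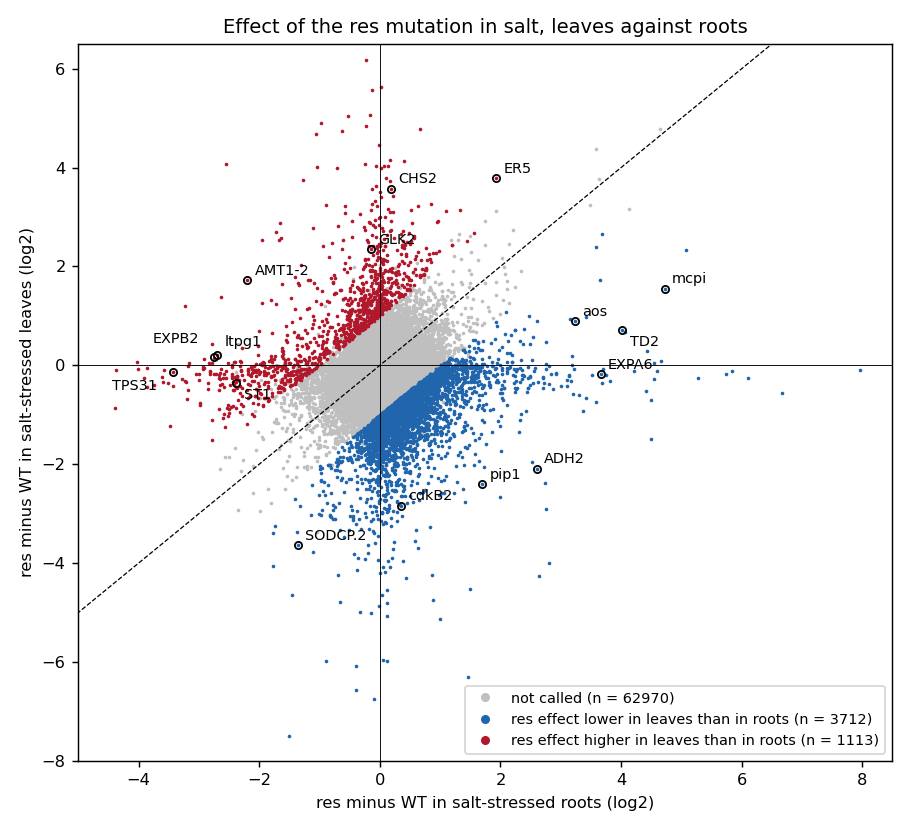
Difference between *res* and WT in salt-stressed roots (horizontal axis, log2) and leaves (vertical axis, log2), 1 point per probe set, means of 3 arrays per group, with the line of equal effect dashed. The 3712 probe sets with a lower effect in leaves (blue) and the 1113 with a higher one (red) were chosen by their distance from that line, and 1451 and 210 of them had a DEG in neither tissue.

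The tissue in which WT plants had more of the transcript was taken from the control arrays, which the contrast did not use. The shares depended on the class. Among the 355 probe sets lowered in *res* roots only, 62.5% were higher in WT roots than in WT leaves in control and 7.61% were higher in leaves. Of the 510 raised in *res* leaves only, 53.5% were higher in WT leaves and 8.43% in WT roots. The 520 raised in *res* roots only were higher in WT roots in 37.3% and in WT leaves in 10.0%. In the largest class, the 1640 lowered in *res* leaves only, 543 were higher in WT roots (33.1%) and 289 in WT leaves. Over all probe sets these shares were 9.5% for roots and 5.71% for leaves. Both shares of the largest class lay above these values, and roots had the larger share across the whole array as well. Whether the larger number for roots among the 1640 went beyond this imbalance was not tested. In the class lowered in *res* roots only the leaf values lay below the array median on all 6 leaf arrays at 184 probe sets (51.8%), where a fall in leaves could hardly be measured. The same held for the leaf values of 36.9% of the probe sets raised in *res* roots only, for the root values of 19.2% of those raised in *res* leaves only, and for the root values of 6.6% of the 1640 lowered in *res* leaves only.

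One gene symbol other than a LOC number was available for 874 genes, of which 51 were higher and 132 lower (20.9% called), with a median tissue difference of -0.17. In 150 of these 183 genes the call was kept when any one of the 12 arrays was left out. The largest differences of the whole array belonged to LOC numbers for which no product name was given. *LOC101251259* was highest with 6.62 ± 0.53 and *LOC101244265* lowest with -8.06 ± 0.16, the latter from a rise of 7.96 in *res* roots.

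In 5 named genes the mutation acted in opposite directions in leaves and roots, with a DEG in each. The ammonium transporter gene *AMT1-2* read 4.34, 4.32 and 3.94 in WT leaves and 5.97, 6.13 and 5.67 in *res* leaves, but 9.6, 9.73 and 9.76 in WT roots and 7.46, 7.56 and 7.46 in *res* roots. Neither pair of groups overlapped, and *res* was 3.29-fold higher in leaves and 4.61-fold lower in roots. Its tissue difference of 3.92 ± 0.19 (adjusted p = 4.16e-08) was the second largest positive value among named genes. *pip1* went the other way, from 6.72, 6.69 and 6.72 in WT leaves to 4.24, 4.45 and 4.26 in *res* leaves, and from 3.13, 3.01 and 3.33 to 4.89, 4.72 and 4.94 in roots. All *res* leaves were below all WT leaves and all *res* roots above all WT roots (tissue difference -4.09 ± 0.15, adjusted p = 3.4e-09). *ADH2*, an alcohol dehydrogenase of fermentation and low oxygen, read 3.14, 3.6 and 3.49 in WT leaves and 1.08, 1.4 and 1.48 in *res* leaves. In roots it was steady in *res*, between 9.16 and 9.21, while WT gave 5.34, 5.77 and, in replicate 3, 8.63. The tissue difference of *ADH2* was -4.69 ± 0.84 (adjusted p = 0.00165) and -5.71 without that array. Both others were pathogenesis-related. *PR1b1*, a protein of the PR-1 family, was lower in *res* leaves (-1.4 ± 0.25) and higher in *res* roots (1.1 ± 0.25), and the chitinase gene *CHI17* changed by -1.1 ± 0.19 and 1.1 ± 0.19.

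**Figure D2:**
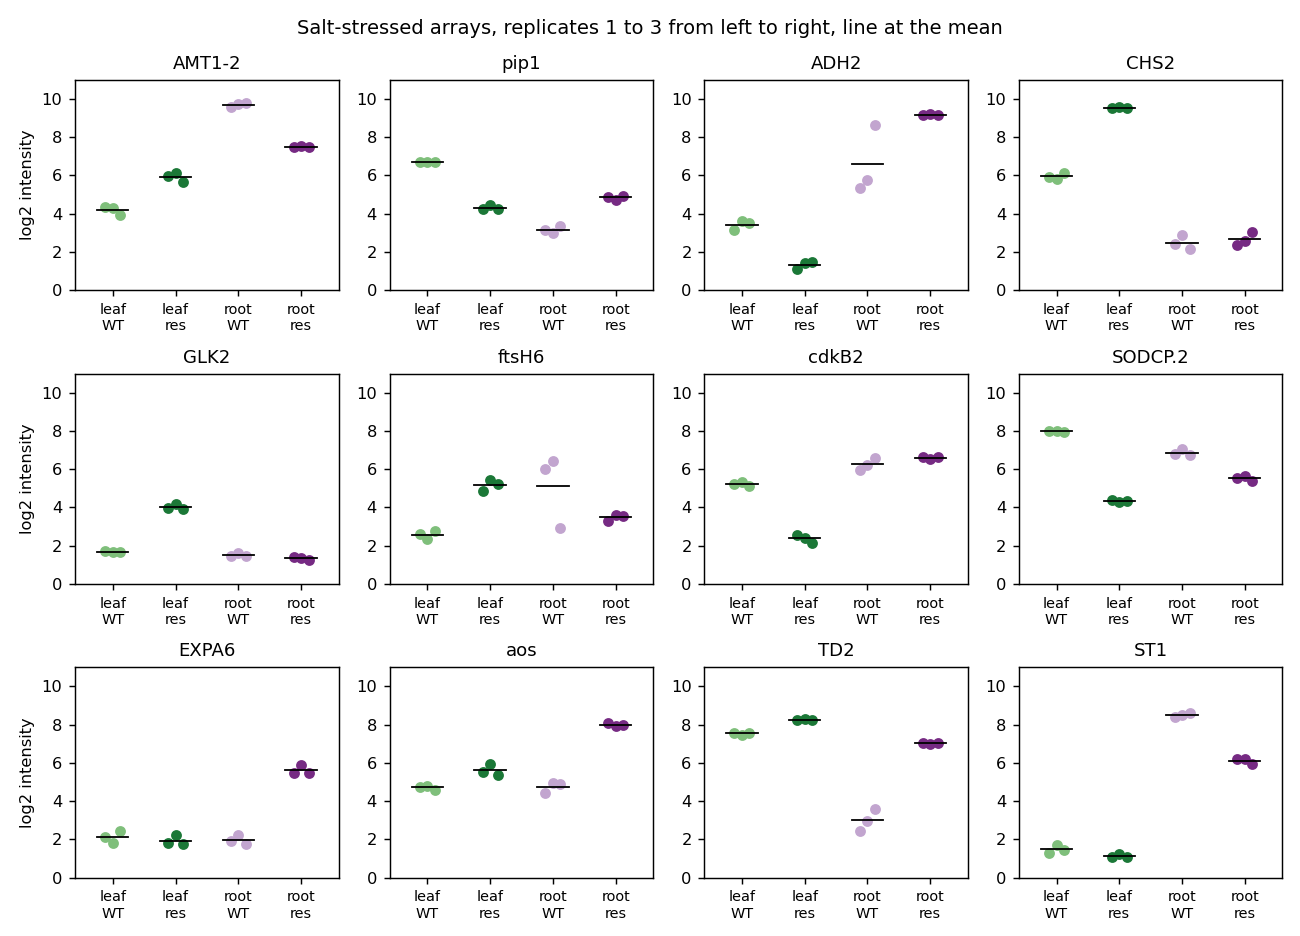
Log2 intensity of 12 genes in the salt arrays (vertical axis), with WT and *res* leaves in green and WT and *res* roots in purple, 1 point per array and a line at the group mean of 3. *AMT1-2* rises in *res* leaves and falls in *res* roots, *pip1* and *ADH2* do the reverse, and replicate 3 of WT roots lies apart in *ADH2* (8.63) and *ftsH6* (2.93).

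Among genes of the jasmonate pathway and of wound defence, *aos*, *SLJAZ3*, *TD2* and *mcpi* were raised more in *res* roots than in *res* leaves. *aos*, allene oxide synthase, which commits lipid hydroperoxides to jasmonate, read 4.43, 4.96 and 4.88 in WT roots and 8.08, 7.92 and 7.96 in *res* roots, against 4.76, 4.81 and 4.61 in WT leaves and 5.51, 5.96 and 5.38 in *res* leaves. *res* was above WT on every array of both tissues, by 3.23 ± 0.16 in roots and by 0.89 ± 0.16 in leaves, and the tissue difference was -2.34 ± 0.23 (adjusted p = 1.52e-05). Allene oxide cyclase, *aoc*, which acts next, had differences between genotypes of 0.77 ± 0.09 in roots and -0.23 ± 0.09 in leaves, and its tissue difference was at the 2-fold limit (-1.0 ± 0.13). The lipoxygenase gene *LOX1.1* had a tissue difference of -1.53 ± 0.25, while *loxD*, the lipoxygenase that feeds jasmonate synthesis after wounding, was 0.99 ± 0.09 above WT in leaves and 0.84 ± 0.09 in roots, a tissue difference that did not pass the test (0.15 ± 0.13, adjusted p = 0.495). *SLJAZ3*, a JAZ repressor that jasmonate itself induces, rose by 2.12 ± 0.12 in roots and was 0.5 ± 0.12 above WT in leaves (tissue difference -1.62 ± 0.17, adjusted p = 2.96e-05). Of the 14 lipoxygenase and jasmonate biosynthesis genes 0 were higher and 3 lower, with a median of -0.36, and of 4 genes of jasmonate signalling 1 was lower. Over all 874 named genes 51 were higher and 132 lower, with a median of -0.17. Of those called, *aoc* and *LOX1.1* were DEGs in neither tissue.

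Of 8 wound-induced genes 2, *TD2* and *mcpi*, rose in *res* roots, and the median root effect of the list was 0.4. *TD2*, a threonine deaminase that acts in the gut of leaf-eating insects, read 2.46, 2.94 and 3.61 in WT roots and 7.04, 6.98 and 7.07 in *res* roots. In leaves *TD2* was already high in WT, at 7.58, 7.48 and 7.58, and was 8.26, 8.31 and 8.24 in *res*. All *res* arrays exceeded the WT arrays of their tissue, but the effect was 4.02 ± 0.2 in roots and 0.72 ± 0.2 in leaves (tissue difference -3.3 ± 0.29, adjusted p = 6.47e-06). *mcpi*, a metallocarboxypeptidase inhibitor, rose by 4.72 ± 0.33 in *res* roots and by 1.55 ± 0.33 in *res* leaves. Its tissue difference was -3.18 ± 0.46 and -3.73 without replicate 3 of WT roots, which read 3.52 against 2.02 and 1.69. *ARG2*, a wound-induced arginase, had the opposite pattern, with a rise of 1.56 ± 0.23 in *res* leaves and a value of 0.17 ± 0.23 in roots, where all arrays lay between 0.66 and 1.05. Over the 8 genes 1 was higher and 3 lower, against 51 and 132 of the 874 named genes, and *Wiv-1* was lower through a fall in *res* leaves.

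Some other hormone genes were raised in *res* roots as well. The ethylene biosynthesis gene *ACS1A* fell there (-1.49 ± 0.27), and of 14 genes of cytokinin metabolism 0 rose and 2 fell. The ethylene-forming oxidase gene *aco5* read 2.19, 2.34 and 3.33 in WT roots and 5.45, 5.17 and 5.74 in *res* roots, whereas all leaf arrays lay between 1.13 and 1.88 (tissue difference -3.02 ± 0.37, adjusted p = 0.000113). *GA2ox3*, which inactivates gibberellins, was 1.92 ± 0.13 higher in *res* roots (tissue difference -2.26 ± 0.18), *ERF2*, an ethylene response factor, 2.02 ± 0.18 higher (tissue difference -2.1 ± 0.26), and *SAMT*, salicylic acid methyltransferase, 2.5 ± 0.2 higher (tissue difference -2.9 ± 0.28). Of 11 genes of ethylene biosynthesis 2 were higher and 1 was lower, with a median of 0.22. *ACO4*, another ACC oxidase, was raised in *res* leaves (1.02 ± 0.13, tissue difference 1.51 ± 0.18), but a dimmer probe set for *ACO4* gave -0.61 ± 0.14 there and -1.79 ± 0.14 in roots, with a tissue difference of 1.18 ± 0.19. For *ERF1* the 2 probe sets disagreed in direction (1.15 ± 0.2 and -1.02 ± 0.26). Auxin genes were split. The auxin-induced repressors *IAA3* and *IAA7* rose in *res* leaves (1.89 ± 0.12 and 1.47 ± 0.18), and *PIN5*, a PIN carrier, and *PIN2*, a symbol used for a PIN carrier and also for a wound-induced proteinase inhibitor, rose in *res* roots (1.09 and 1.19). The tissue differences were 1.62 ± 0.17, 2.2 ± 0.25, -1.86 ± 0.43 and -1.24 ± 0.4, and 3 of 28 auxin genes were higher and 3 lower. The rise of *PIN5* leans on replicate 3 of WT roots, which read 5.17. The other WT roots read 6.84 and 6.4 and *res* roots 7.35, 7.19 and 7.14. Without that array the tissue difference of *PIN5* was -1.38.

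Of 17 genes of mineral uptake 4 had a called tissue difference, which were *AMT1-2* and 3 genes of iron and sulfate uptake with a DEG in roots only. *NRAMP1*, a metal transporter of iron-starved roots, read 6.73, 6.73 and 6.77 in WT roots and 9.14, 9.21 and 9.27 in *res* roots, and stayed between 1.37 and 2.22 on all leaf arrays. The root groups were far apart and the leaf groups near the array median (tissue difference -2.92 ± 0.18, adjusted p = 4.19e-07). *FRO1*, the ferric chelate reductase, rose from 4.88, 5.1 and 6.13 to 8.28, 8.32 and 8.26 in roots, with leaves between 5.92 and 6.29 in both genotypes (tissue difference -3.09 ± 0.33). *ST1*, a high-affinity sulfate transporter of roots, fell from 8.38, 8.5 and 8.63 to 6.21, 6.19 and 5.97, and its leaf arrays lay between 1.06 and 1.73 (tissue difference 2.04 ± 0.18, adjusted p = 5.93e-06). In the whole list 2 were higher and 2 lower, with a median of -0.08. Other metal and sulfate transporters, *ST2* (1.34 ± 0.13), *NRAMP3* (1.23 ± 0.09) and *Nramp2* (-1.02 ± 0.12), had a DEG in leaves and no called tissue difference. Nitrite reductase, *nii1*, fell in both tissues (-2.08 ± 0.16 in leaves and -1.61 in roots) and had no called tissue difference (-0.47 ± 0.22, adjusted p = 0.199).

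Of 21 genes of the cell cycle and of DNA replication, 8 fell in *res* leaves and 0 were DEGs in *res* roots. Among all 874 named genes 101 fell in *res* leaves and 27 in *res* roots, and over all probe sets the share lowered in leaves was 3.28%. *cdkB2*, a plant-specific kinase that drives entry into mitosis, read 5.24, 5.33 and 5.11 in WT leaves and 2.57, 2.42 and 2.16 in *res* leaves, against 5.96, 6.2 and 6.59 in WT roots and 6.62, 6.52 and 6.66 in *res* roots. The leaf groups were apart by 7.18-fold and the root groups overlapped (tissue difference -3.19 ± 0.21, adjusted p = 6.92e-07). The A-type cyclins *CycA1* and *CycA2* fell by 1.87 ± 0.16 and 1.99 ± 0.12 in *res* leaves, with values of 0.06 ± 0.16 and -0.06 ± 0.12 in roots. *H2B-1*, a histone made during DNA replication, fell by 2.19 ± 0.16 in leaves, with 0.25 ± 0.16 in roots. The tissue difference was called higher in 0 and lower in 9 of the 21, with a median of -0.49, and 20 of the 21 values were negative, as were 541 of the 874 over all named genes. The others called were *cycD3* (-1.53 ± 0.21), *DNApolalpha* (-1.88 ± 0.34), *pcna* (-1.28 ± 0.23), *CycB2* (-1.15 ± 0.21) and *cdkB1* (-1.13 ± 0.28). With the scaling repeated within each tissue 6 were lower, and without replicate 3 of WT roots 9. The 8 nuclear leaf markers, given here because the tissues were whole, differed between *res* and WT leaves by -0.4 to 1.38 with 1 DEG, and the part of tissue makeup in the result was not tested.

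Among 52 expansins and cell wall enzymes, which loosen or rebuild the wall of growing cells, 15 fell in *res* leaves and 4 in *res* roots (101 and 27 of the 874 named genes), and 2 rose in *res* roots. *PMEU1*, a pectin methylesterase, read 10.03, 10.04 and 10.09 in WT leaves and 6.99, 7.25 and 7.08 in *res* leaves, a fall of 2.95 ± 0.25, with 0.22 ± 0.25 in roots (tissue difference -3.16 ± 0.36, adjusted p = 5.59e-05). *EXLA1*, an expansin-like protein, and *XTH1*, a xyloglucan endotransglucosylase, fell by 2.44 ± 0.17 and 2.03 ± 0.14 in leaves. In roots an expansin rose and another fell. *EXPA6*, an alpha-expansin, read 1.91, 2.22 and 1.74 in WT roots and 5.5, 5.91 and 5.45 in *res* roots, while its leaf arrays lay between 1.74 and 2.42 (tissue difference -3.85 ± 0.27, adjusted p = 9.21e-07). *EXPB2*, a beta-expansin, went from 7.51, 7.47 and 8.0 in WT roots to 4.95, 4.82 and 4.94 in *res* roots, with all leaf arrays between 1.14 and 1.43 (tissue difference 2.91 ± 0.18). In both expansins the root groups were far apart and the leaf arrays near or below the array median. The tissue difference was higher in 2 and lower in 12 of the 52 genes, with a median of -0.32. Without replicate 3 of WT roots 3 were higher and 16 lower.

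**Figure D3:**
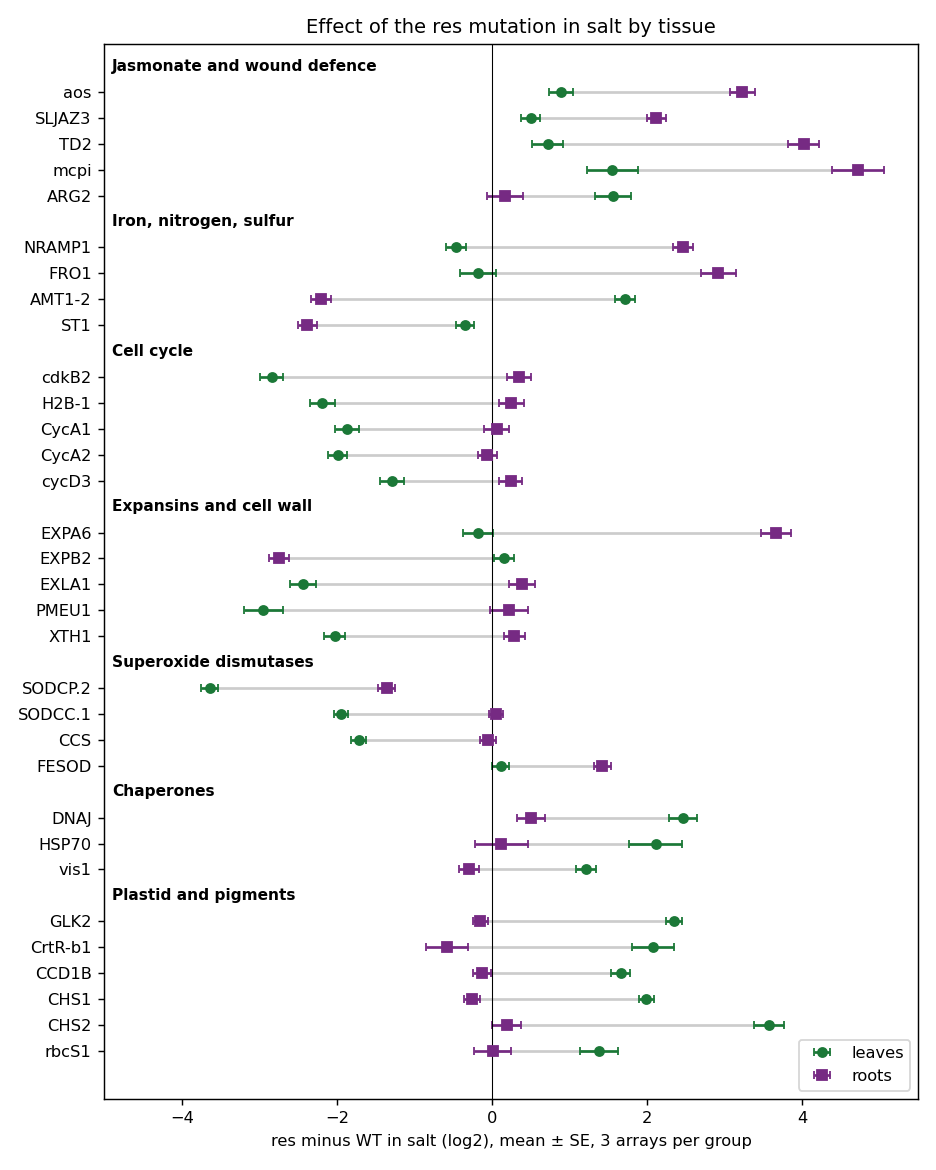
*res* minus WT in salt (horizontal axis, log2) for leaves (circles) and roots (squares), mean ± SE with 3 arrays per group, for genes grouped by function. The cell cycle genes lie left of zero in leaves and near zero in roots, *aos*, *TD2*, *mcpi*, *NRAMP1* and *FRO1* lie right of zero in roots by 2.46 to 4.72, and pigment and chaperone genes lie right of zero in leaves.

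Copper and zinc enzymes that remove superoxide fell in *res* leaves. *SODCP.2*, the copper and zinc superoxide dismutase of plastids, read 8.0, 8.02 and 7.92 in WT leaves and 4.39, 4.3 and 4.34 in *res* leaves. In roots it was lower in *res* too, with 6.78, 7.07 and 6.75 in WT and 5.54, 5.62 and 5.38 in *res*, so the effect was -3.64 ± 0.11 in leaves and -1.36 ± 0.11 in roots (tissue difference -2.28 ± 0.15, adjusted p = 5.99e-07). The groups did not overlap in either tissue. The cytosolic form *SODCC.1* and *CCS*, the chaperone that loads copper into both, fell by 1.95 ± 0.09 and 1.72 ± 0.1 in leaves, with values of 0.05 ± 0.09 and -0.05 ± 0.1 in roots. *FESOD*, the iron form, had a value of 0.11 ± 0.11 in leaves and rose by 1.42 ± 0.11 in *res* roots (tissue difference -1.31 ± 0.16). *TPX2*, a peroxidase, read 5.02, 5.19 and 4.89 in WT roots and 3.22, 3.21 and 2.9 in *res* roots, with leaves between 1.3 and 1.47 (tissue difference 1.98 ± 0.16). In the list of 28 redox genes 1 was higher and 8 lower, with a median of -0.31.

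Of 11 protease genes 4 fell in *res* leaves, against 101 of the 874 named genes. The subtilases *P69A* and *P69B*, secreted proteases of the pathogen response, fell by 1.59 ± 0.13 and 1.22 ± 0.14 in leaves, with values of 0.02 ± 0.13 and 0.47 ± 0.14 in roots, and the tissue difference was lower in 4 of the 11 and higher in 0. Another member, *VPE5*, a vacuolar processing enzyme, had a tissue difference of -1.46 ± 0.16 at 1 probe set, and of 0.13 ± 0.17 and 0.05 ± 0.13 at 2 dimmer ones. *CHI9*, a basic chitinase, fell in both tissues, from 8.58, 8.6 and 8.51 to 5.97, 5.76 and 5.84 in leaves and from 10.39, 10.45 and 10.65 to 9.11, 9.15 and 9.02 in roots (tissue difference -1.3 ± 0.14). *PR-1a1* differed, with a fall in *res* roots only (-1.4 ± 0.16, tissue difference 1.53 ± 0.23). *THT1-3* and *THT7-1*, which make hydroxycinnamic acid amides for the cell wall, fell by 2.41 ± 0.14 and 1.46 in leaves. The aromatic amino acid decarboxylases *AADC1A* and *AADC2* fell by 1.79 and 1.71 there.

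Lipid transfer proteins were split by tissue and member. *ltpg1*, a lipid transfer protein anchored to the membrane, lay between 11.03 and 11.36 in all leaves and went from 9.43, 9.76 and 8.92 in WT roots to 6.6, 6.84 and 6.59 in *res* roots (tissue difference 2.91 ± 0.24, adjusted p = 3.47e-06). *Dea1*, of a related family, read 4.24, 4.34 and 3.71 in WT leaves and 1.74, 2.08 and 1.64 in *res* leaves, with 0.96 ± 0.22 in roots (tissue difference -3.24 ± 0.31). Of the 4 genes 2 were higher and 2 lower.

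Of 27 genes of sugar transport and metabolism 6 fell in *res* leaves and 1 in *res* roots, against 101 and 27 of the 874 named genes. The hexose transporters *ht1* and *ht3* fell by 1.5 and 1.38 in leaves, the fructokinase *FRK2* by 1.5 ± 0.1 and the hexokinase *hxk1* by 1.43 ± 0.1. In roots these 4 genes gave 0.74, -0.02, -0.05 ± 0.1 and -0.2 ± 0.1, and none was a DEG. *GolS2*, galactinol synthase of the raffinose pathway, had the opposite pattern, going from 9.35, 9.15 and 8.81 in WT roots to 7.96, 8.02 and 7.93 in *res* roots (tissue difference 1.88 ± 0.2), and *bmy3*, a beta-amylase, rose by 1.87 in *res* leaves. The tissue difference was higher in 2 of the 27 and lower in 6, and with the scaling repeated within each tissue 3 and 3.

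A number of flavonoid, carotenoid and plastid genes were raised in *res* leaves. *CHS2*, a chalcone synthase, the first enzyme of flavonoid synthesis, read 5.92, 5.82 and 6.13 in WT leaves and 9.54, 9.55 and 9.5 in *res* leaves, and lay between 2.15 and 3.05 in roots of both genotypes. The leaf groups were apart by 11.9-fold and the root groups overlapped (tissue difference 3.38 ± 0.27, adjusted p = 2.99e-06). *CHS1* and flavanone 3-hydroxylase, *F3H*, rose by 1.99 ± 0.1 and 1.82 in leaves, with tissue differences of 2.25 ± 0.15 and 1.22 ± 0.22. *GLK2*, a transcription factor of chloroplast development, read 1.74, 1.65 and 1.67 in WT leaves and 3.97, 4.2 and 3.94 in *res* leaves, and root arrays lay between 1.25 and 1.61 (tissue difference 2.5 ± 0.14, adjusted p = 1.94e-07). *CrtR-b1*, a beta-carotene hydroxylase that makes xanthophylls, rose by 2.08 ± 0.27 in leaves (tissue difference 2.66 ± 0.38, and 3.11 without replicate 3 of WT roots), and *CCD1B*, a carotenoid cleavage dioxygenase, by 1.66 ± 0.12. The trichome, terpene and phenylpropanoid list, which holds *CHS1*, *CHS2* and *F3H*, had 4 genes higher and 9 lower of 23, so that these 3 genes ran against the list. Of the trichome markers, *MTS1* and *CPT1* lay between 1.08 and 1.81 on all salt arrays, and *MTS2* between 1.38 and 2.47 in leaves and between 3.53 and 5.38 in roots. Carotenoid, isoprenoid and sterol enzymes had 4 higher and 3 lower of 27, and 4 and 0 with the scaling repeated within each tissue.

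*ftsH6*, a protease of the thylakoid membrane, had the largest positive tissue difference among named genes (4.22 ± 0.89, adjusted p = 0.00517), and replicate 3 of WT roots made it smaller. It read 2.63, 2.36 and 2.76 in WT leaves and 4.87, 5.41 and 5.2 in *res* leaves. In WT roots replicates 1 and 2 read 6.02 and 6.42 and replicate 3 read 2.93, below the *res* roots at 3.28, 3.58 and 3.57, so that the leaf effect was clear of the spread (2.57 ± 0.63) and the root effect was not a DEG (-1.65 ± 0.63, adjusted p = 0.166). Without that array the tissue difference was 5.31. *TPS31*, a terpene synthase, had the same feature, with 5.64, 5.81 and 3.33 in WT roots, 1.47, 1.4 and 1.59 in *res* roots and leaves between 0.96 and 1.32 (tissue difference 3.29 ± 0.64, and 4.09 without it). Of 17 heat shock proteins and chaperones, which refold proteins under stress, 4 rose in *res* leaves, with a median leaf effect of 0.18. The co-chaperone *DNAJ* rose from 3.71, 3.44 and 3.36 to 5.89, 6.18 and 5.8, and *HSP70* from 3.55, 4.09 and 3.31 to 5.8, 5.8 and 5.68, with values of 0.5 ± 0.18 and 0.12 ± 0.34 in roots. Their tissue differences were 1.96 ± 0.26 and 1.99 ± 0.48 (2.53 for *HSP70* without replicate 3 of WT roots), *vis1*, a small heat shock protein, had 1.51 ± 0.19, and 3 of the 17 were higher and 0 lower, with a median of 0.1. Over all 874 named genes 41 rose in *res* leaves, and the tissue difference was higher in 51 and lower in 132.

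Of the photosynthesis genes that had a symbol, few had a called tissue difference. The nuclear list is small, and 2 of 11 were higher before symbols were taken out. Over all 874 named genes 51 were higher and 132 lower. The study's text reports further nuclear genes, such as *RCA1*, *PGR5* and *FEDA*, as higher in *res* than in WT leaves in salt. These are not among the 8 measured here. Of the 8 nuclear leaf markers *rbcS1*, the small subunit of Rubisco, was higher through a rise from 8.65, 8.59 and 8.55 to 9.97, 9.98 and 9.99 in leaves (tissue difference 1.38 ± 0.34), and 0 were lower. Among 27 plastid-encoded genes of the photosynthesis complexes and 27 others of the plastid genome 0 were called in either direction, with medians of 0.12 and 0.07. The medians of *res* against WT were 0.34 and 0.41 in leaves, where 0 and 1 were DEGs, and 0.22 and 0.37 in roots, where 0 were in either group.

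**Figure D4:**
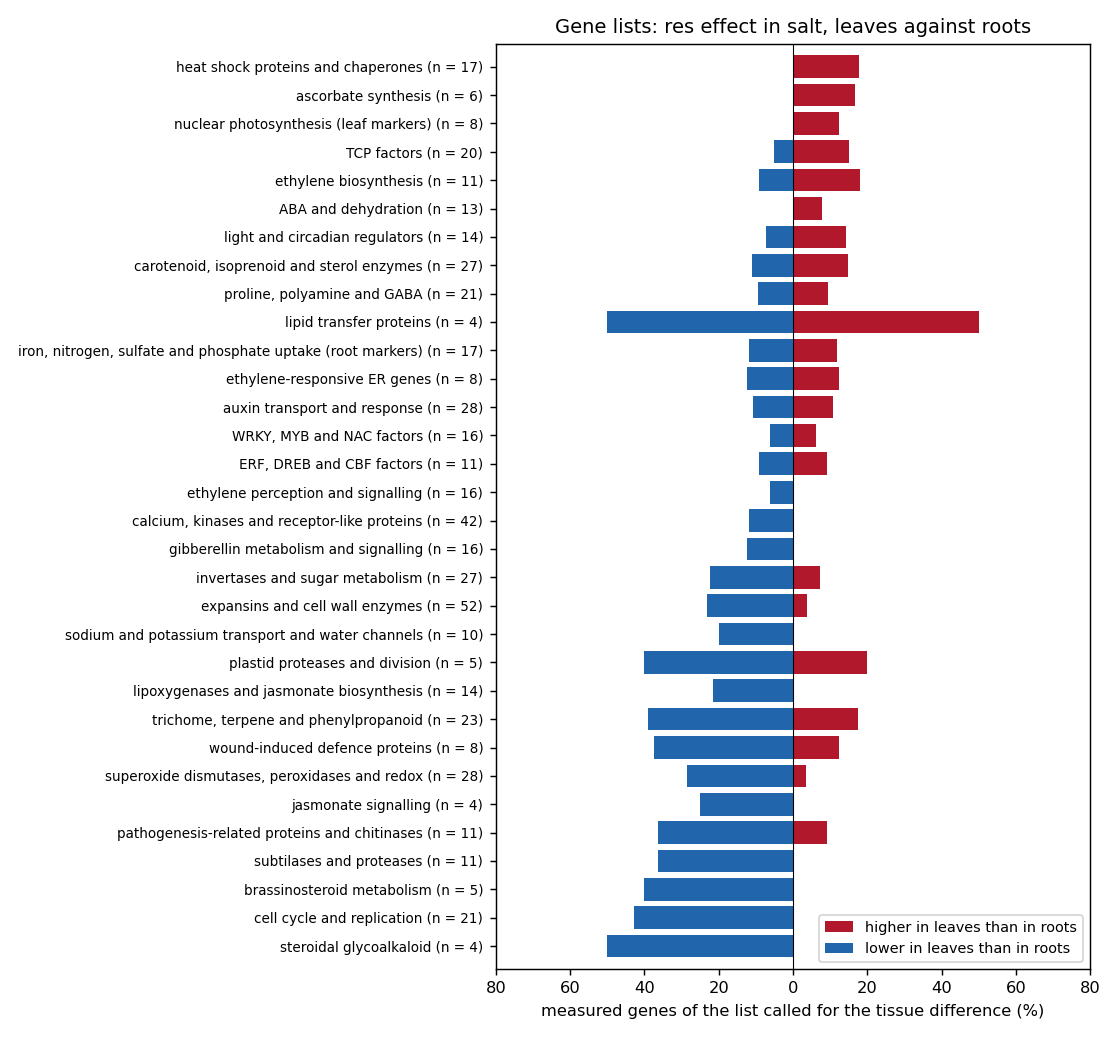
Share of the measured genes of each list (horizontal axis, percent) with a called tissue difference, higher in leaves to the right (red) and lower to the left (blue), with the number measured beside each name and lists without a called gene left out. Cell cycle genes (9 of 21) and proteases (4 of 11) are among the lists called lower only. Heat shock proteins and chaperones (3 of 17) are among those called higher only. Over all 874 named genes 132 are called lower and 51 higher. The large shares of the lipid transfer proteins come from 4 genes.

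Whether the tissue difference was particular to salt was asked by taking the same difference in the 12 control arrays and testing the change, which also holds 5 days of growth. It changed at 5264 probe sets (7.76%), 2131 higher (3.14%) and 3133 lower (4.62%) in salt, and the count rose to 7148 without replicate 1 of WT leaves in control, an array more than 2-fold away from the average of its fellow arrays at 2494 probe sets (782 for replicate 2 and 1054 for replicate 3). Of the 4825 tissue differences in salt, 1405 were called in the same direction in control and 381 in the opposite one, where 5315 probe sets (7.84%) were called in all, 1974 higher (2.91%) and 3341 lower (4.93%). Across all probe sets the tissue differences of control and salt, from separate arrays, correlated with r = 0.26, and probe sets are not independent replicates. Among the 183 named genes called in salt the change was called in 90, a count given as a description, since these genes were chosen by the salt difference, which is a term of the change.

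*TD2* and *mcpi* turned from leaves to roots. In control *TD2* read 5.56, 2.86 and 3.35 in WT leaves and 10.65, 10.51 and 10.55 in *res* leaves, with all roots between 2.01 and 2.95. The tissue difference was 6.93 ± 0.59 in control and -3.3 ± 0.29 in salt, where WT leaves and *res* roots were high as well, and its change was -10.22 ± 0.84 (adjusted p = 1.99e-08). For *mcpi* the change was -10.54 ± 0.74, from 7.36 ± 0.52 in control, and without either of the arrays that stand apart the change was -11.04 or -10.53 for *TD2* and -11.08 or -11.09 for *mcpi*. *ER5*, an ethylene-responsive late embryogenesis abundant protein, made the reverse turn. In control it read 8.86, 8.21 and 8.23 in WT leaves and 4.08, 3.76 and 3.78 in *res* leaves, but 7.11, 6.99 and 7.23 in WT roots and 11.24, 11.22 and 11.2 in *res* roots. In salt *ER5* was higher in *res* in both tissues, by 3.79 ± 0.21 in leaves and 1.93 ± 0.21 in roots, so that the tissue difference went from -8.67 ± 0.28 to 1.86 ± 0.29 (change 10.53 ± 0.39, adjusted p = 2.25e-13).

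The iron genes and the chloroplast regulator changed sign too. *FRO1* was 2.91 ± 0.2 lower in *res* roots in control, with 7.61, 7.72 and 7.7 in WT and 4.8, 4.78 and 4.72 in *res*, and 2.92 ± 0.23 higher in salt (change of the tissue difference -6.65 ± 0.4). *NRAMP1* went from -1.65 ± 0.12 to 2.46 ± 0.13 in roots (change -4.04 ± 0.24). *GLK2* was lower in *res* leaves in control, with 6.21, 6.71 and 6.79 in WT and 4.43, 4.35 and 4.38 in *res*, before it was higher there in salt, where both genotypes read lower than in control (change 4.25 ± 0.24). *EXPA6* and *cdkB2* had tissue differences in control that were not called (-0.31 ± 0.3 and -0.24 ± 0.4), and their changes were -3.54 ± 0.43 and -2.96 ± 0.57. *aos* and *GA2ox3* kept the sign of the tissue difference with smaller values in salt, going from -7.28 ± 0.23 to -2.34 ± 0.23 and from -6.58 ± 0.21 to -2.26 ± 0.18. For *aos* the effect in leaves changed sign, from -2.57 ± 0.16 in control to 0.89 ± 0.16 in salt, and in roots it went from 4.72 ± 0.16 to 3.23 ± 0.16. For *GA2ox3* it went from -1.93 ± 0.15 to -0.34 ± 0.13 in leaves and from 4.66 ± 0.15 to 1.92 ± 0.13 in roots. *EXPB2*, *ST1*, *CHS2* and *pip1* had called tissue differences in salt and no called change from control (-0.69, -0.62, 0.69 and 1.6), although that of *pip1* became 2.78 and was called without replicate 1 of WT leaves in control.

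**Figure D5:**
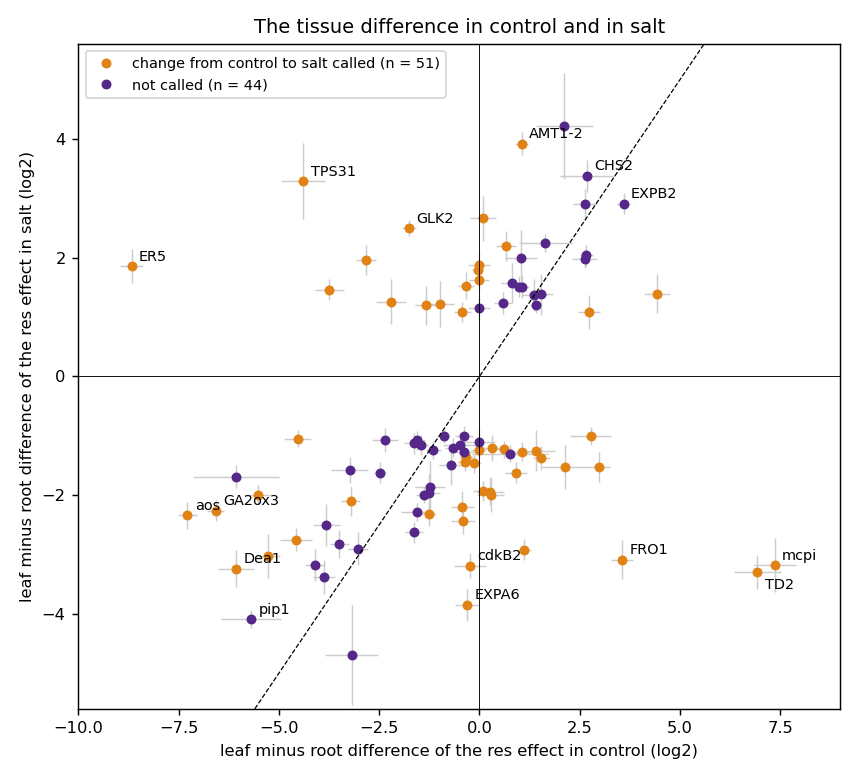
Tissue difference of the *res* effect in control (horizontal axis, log2) and in salt (vertical axis, log2) for 95 named genes, mean ± SE with 3 arrays per group and the line of equality dashed. Orange points are the 51 genes with a called change and purple points the 44 others. For 30 genes the sign is opposite, among them *TD2* and *mcpi* (positive in control) and *ER5*, *TPS31* and *GLK2* (negative in control).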

How the data were processed

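Scans of the Tomato Gene 1.1 ST array were processed by the authors with RMA (background correction, log2 transformation, quantile normalization over arrays, 1 value per probe set), and Partek is named for annotation and statistics. What was deposited is thus a log2 intensity per array for each of 67795 probe sets, without detection calls, and no scaling was added. For that software no version is given in the sources used here. By the platform's annotation 23194 probe sets had 1 symbol, 170 had several and 44431 had none, and symbols were updated through RefSeq. Of the first kind, 22269 are LOC numbers, and 874 other genes were named, each by its brightest probe set.

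The 12 salt arrays were fitted as 4 group means with limma 3.58.1 (R 4.3.3), and the Benjamini-Hochberg adjustment ran over the whole array. SEs come from the moderated variance of all 12 arrays, which can be too small where 1 group varies more than the others. The change from control to salt used all 24 arrays and 8 groups, as did the control values. Named genes are the 8 highest and 8 lowest tissue differences called with every array left out, those with opposite DEGs in both tissues, up to 4 called members of each of 36 lists, further members that state a list, and *aos* and *mcpi* from the study's text. *loxD*, *nii1*, *FESOD*, *CCS* and *PMEU1* were singled out after their values were seen. Members and lists were chosen with earlier results of these data known, so lists carry no test. From the lists 14 symbols of unsure function were taken out after values were seen. With them the wound list held 13 genes (2 higher, 6 lower), the protease list 12 (0 and 5), jasmonate signalling 5 (0 and 2), ascorbate synthesis 9 (1 and 1), leaf markers 11 (2 and 0) and light regulators 15 (2 and 2). The fit was tested on simulated data with the same spread in all groups. That does not cover a group that varies more than the others, such as WT roots in salt. Alternatives were other scalings, variance estimates, array sets and weights, no dim or repeated probe sets, a replicate block, and each array left out.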

Additional observations from a re-analysis of the deposited data

Results flagged for a closer look

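The effect of *res* in salt differed between leaves and roots, by the test of the difference itself, at 4825 probe sets, which is the comparison described above. A second test of the same kind asked whether that tissue difference changed between control and salt, and it did at 5264 probe sets. Among the genes with the largest tissue differences, and those with opposite DEGs in leaves and roots, 18 genes in all, the change passed the same test in 9. They were chosen by the salt difference, which is a term of the change and favours passing, so that this count is a description beside the 7.76% of all probe sets. It was higher in salt for *TPS31* (7.68), *GLK2* (4.25), *AMT1-2* (2.87), *Dea1* (2.83) and *CrtR-b1* (2.57). It was lower for *TD2* (-10.22), *EXPA6* (-3.54), *cdkB2* (-2.96) and *CHI17* (-1.77). *TPS31* was 4.16 ± 0.39 higher in *res* roots in control and 3.43 ± 0.46 lower there in salt. *AMT1-2* was lower in *res* roots in both conditions (-1.97 ± 0.12 and -2.2 ± 0.13), while in leaves it went from -0.93 ± 0.12 to 1.72 ± 0.13. In *Dea1* the fall in *res* leaves was 4.61 ± 0.31 in control and 2.28 ± 0.22 in salt. Without replicate 1 of WT leaves in control the changes of these 9 genes ran from -11.04 to 7.58, and all 9 passed the test again. Some of the other genes passed only with an array left out, so the count depends on single arrays. They were *pip1* (2.78) and *Wiv-1* (1.1) without replicate 1 of WT leaves in control. Without replicate 3 of WT roots in salt they were *ADH2* (-2.52) and *ftsH6* (3.2). Control tissue was taken 5 days earlier, and its part in these changes cannot be told apart from that of salt.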

How the results depend on the processing

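Repeating the quantile normalization within each tissue gave 1711 higher and 2175 lower tissue differences (1113 and 3712 as deposited) and 1315 probe sets lower in *res* leaves (2223). With 1 probe set per gene 21323 probe sets were tested, and 833 higher and 2762 lower tissue differences were called (16.9%). Against WT there were then 512 higher and 1740 lower DEGs in *res* leaves (10.6%). In *res* roots there were 523 higher and 523 lower (4.91%). Leaving out each array gave 4312 to 5791 tissue differences (1027 to 1387 higher, 3281 to 4404 lower). It gave 2970 to 3237 DEGs in leaves (808 to 898 higher, 2096 to 2429 lower), 1369 to 2054 in roots (683 to 1173 higher, 622 to 881 lower) and 4810 to 7148 changes from control to salt (1996 to 2704 higher, 2738 to 4444 lower). At least 4103 of the 4825 called tissue differences kept their call when an array was left out. No called probe set was called in the opposite direction, which leaving out 1 array could hardly bring about. The labels do not say whether equal replicate numbers pair the arrays. Over the salt groups the correlation of deviations was -0.049 to 0.08 for equal numbers and -0.101 to 0.096 for others. Between *res* roots and *res* leaves it was 0.0255 to 0.0799 for equal numbers and -0.0552 to 0.00134 for others. Between WT roots and WT leaves it was -0.049 to 0.029 and -0.0364 to 0.0435. With 3 arrays per group this cannot settle whether they are paired. With the number as a replicate block 4829 tissue differences were called, 1119 higher and 3710 lower. Of 95 named genes 17 were not called with the scaling within tissues, 10 in an ordinary ANOVA, 7 with centred arrays, 7 in a fit of 24 arrays, 2 with trend and robust variance and 1 with array weights, and 13 were lost when some array was left out. Those lost most often had a difference near 2-fold (*PDH* -1.01, *aoc* -1.0) or an adjusted p near 0.05 (*ACS1A* 0.0456, *CO1* 0.0363, *GAME1* 0.0277). With no detection calls, genes below the array median in a tissue have no measured fall there.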

Other observations

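Further named genes with a tissue difference in salt belong to growth regulation and primary metabolism. Brassinosteroid synthesis was represented by *CYP85A1*, which makes castasterone, with 5.54, 5.18 and 5.22 in WT leaves and 4.03, 4.39 and 3.73 in *res* leaves. Its roots read 4.31, 4.61 and 5.21 in WT and 5.41, 5.53 and 5.38 in *res*, a DEG in leaves (-1.26 ± 0.21) and not in roots (0.73 ± 0.21, adjusted p = 0.0535; tissue difference -1.99 ± 0.3, adjusted p = 0.000455). *det2*, a steroid reductase of the same pathway, had -1.52 ± 0.37. Of 20 TCP factors, regulators of leaf shape and cell division, 3 were higher (*TCP10*, *TCP23* and *TCP6*) and 1 was lower (*TCP13*), and *TCP17* fell in both tissues (-2.05 and -1.14). A dimmer probe set for *TCP10* had a tissue difference that was not called (0.69 ± 0.16), and the one counted lay below the array median on all 6 root arrays.

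*GGP1*, the enzyme that controls ascorbate synthesis, rose by 1.43 ± 0.24 in *res* leaves, with -0.14 ± 0.24 in roots, where replicate 3 of WT read 7.08 against 8.34 and 8.25, and its tissue difference was 1.57 ± 0.34. *NAC1*, a transcription factor, was 1.31 ± 0.12 higher in *res* leaves in salt, with -0.15 ± 0.12 in roots, whereas in control the difference lay in roots (3.13 ± 0.26). *PDH*, proline dehydrogenase, rose in both tissues in salt, by 1.08 ± 0.11 in leaves and 2.09 ± 0.11 in roots, and its tissue difference of -1.01 ± 0.15 was at the limit of 2-fold (-0.94 without replicate 3 of WT roots). The sodium-proton exchanger *nhx4* had values of -0.98 ± 0.22 in leaves and 0.99 ± 0.22 in roots, neither of them a DEG, and a tissue difference of -1.96 ± 0.31 (adjusted p = 0.000684). *FtsZ1*, which divides plastids, fell by 1.22 ± 0.12 in *res* leaves, with 0.13 ± 0.12 in roots.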
